A study of Sus scrofa with 6 samples.

Results

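The TGF-beta, BMP and myostatin pathway was described by 59 genes that encode its ligands, secreted antagonists, latent binding proteins, receptors, SMAD proteins and intracellular inhibitors. Members were the rows of the FPKM table whose pig Ensembl identifier is paired with one of these symbols. Of the 59 genes, 45 were found among the 28266 rows of the table, 37 had a mean FPKM of at least 1 and were tested, and 8 lay under that minimum. The other 14 (INHBA, INHBB, GDF6, GDF15, BMP2, FSTL1, FSTL3, GREM1, NOG, TWSG1, LTBP4, SMURF2, SKI and PMEPA1) were not analysed here.

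Members of the TGF-beta family are secreted as precursors, and the dimers bind a pair of type II receptors that activate type I receptors, which are kinases of the cell surface. Ligands of the TGF-beta, activin and myostatin class act through SMAD2 and SMAD3, ligands of the BMP class act through SMAD1, SMAD5 and SMAD9, and both branches share SMAD4. In skeletal muscle, myostatin is known as a brake on muscle growth, TGF-beta as an inhibitor of myoblast differentiation, and BMP signals as a factor that keeps satellite cells in proliferation.

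RNA-seq was carried out on porcine satellite cells (PSCs), the stem cells of muscle that fuse into myotubes, isolated from the limb muscles of 3-day-old Yorkshire male pigs. The cells were grown on Matrigel with basic fibroblast growth factor and then differentiated in medium with horse serum. The comparison was between cells that had differentiated for 24 h (NC24h) and for 36 h (NC36h), with 3 libraries each (replicates 4, 5 and 6), to find how each level of the pathway stood at the later time. Both groups carry the negative control siRNA of a study that silenced the lncRNA H19, and the libraries with H19 siRNA were not analysed here. The sample labels state 48 h for the later group, the series title and the methods state 36 h, and 36 h is used in the names. The labels do not name the siRNA, and the letter N of the sample titles was read as the NC group. Nothing in the sources says whether the replicates came from separate pigs, so p-values measure the spread between these libraries, which may be technical. The source of RNA is given as endometrium in one label and as satellite cells of skeletal muscle in another.

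The libraries held between 16382890 and 16908165 fragments at 24 h and between 18015798 and 21896353 at 36 h, as implied by the FPKM values, and 1 fragment in a gene of 1 kb was worth an FPKM between 0.0457 and 0.0610. Myogenic genes stood high in every library. DES, the muscle intermediate filament gene, had an FPKM of 1846, 1781 and 1452 in NC24h replicates 4, 5 and 6 and of 3367, 3305 and 2875 in NC36h, and MYOD1, a myogenic regulator, had an FPKM of 255, 306 and 386 and of 246, 258 and 258. The summed FPKM of the 12 myogenic genes measured was between 4144 and 8290 at 24 h and between 17110 and 19899 at 36 h. Of the defining genes of other cell types, KDR (endothelium) and PTPRC (immune cells) were listed at 0 in all 6 libraries, MYH11 (smooth muscle) was at 0 in 5 of 6, PLIN1 (adipocytes) was at 0.0773 or lower, and PDGFRA (fibroblasts) was at 0.680 or lower. The summed FPKM of the 4 endothelial genes was between 1.30 and 1.75 at 24 h and between 1.14 and 1.84 at 36 h, that of the 5 immune genes was between 4.63 and 5.89 and between 2.05 and 3.37, and that of the 3 adipocyte genes was between 2.71 and 3.31 and between 0.939 and 2.02. The 6 fibroblast genes summed to between 229 and 298 at 24 h and between 397 and 537 at 36 h, most of it COL3A1, and of the 4 of them tested COL3A1 rose and 2 others fell. The 6 smooth muscle or pericyte genes summed to between 977 and 1194 and between 1063 and 1196, most of it ACTA2. Of these 6 genes, 2 stayed under an FPKM of 1 in every library, and of the 4 tested 2 rose and 1 fell. The part of these other cells in the results was not tested, and in bulk RNA fewer cells of a type and less RNA per cell cannot be told apart.

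NC24h replicate 6 stood apart from the other NC24h libraries. It had the lowest myogenic sum of its group, 4144 against 8290 and 7120, and the highest sum of 8 cell cycle genes, 173 against 63.0 and 86.4, where the NC36h libraries lay between 19.5 and 24.6. It was the highest NC24h library in 20 of the 37 members tested and in 11 of the 17 members that fell, and in 50.5% of all genes tested. Changes without this library are given beside the members where it ended or made a call or turned the sign, and beside some others that it moved.

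Of the 37 members tested, 21 differed between NC24h and NC36h (limma on log2(FPKM + 1), Benjamini-Hochberg adjusted p under 0.05 over all 14060 genes tested), 4 higher and 17 lower at 36 h. Among all genes tested 50.9% were called, 16.5% higher and 34.4% lower, so the count of members called was near that of the genes at large and leaned to the lower side. The groups did not overlap in 25 members, against 63.6% of all genes. The median log2 change was -0.23 for the members and -0.16 for all genes. Median-ratio scaling divides each library by the median of its ratios to each gene's geometric mean, over genes detected in every library. With it, the median of all genes moved to -0.003 and that of the members to -0.07. On that scale 18 members were called, 5 higher and 13 lower, against 23.9% and 22.2% of all genes. Each of the 21 called members kept its sign under all alternatives fitted, and 12 of them kept the call in all. Without NC24h replicate 6, 23 members were called, 5 higher and 18 lower. Leaving out an NC36h library left 15 (replicate 4), 13 (replicate 5) and 14 (replicate 6) members called. The calls among all 14060 genes moved as well. They were 7156 in the main fit and 7336 without NC24h replicate 6. Without NC36h replicates 4, 5 and 6 they were 5737, 4889 and 6037.

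**Figure D1:**
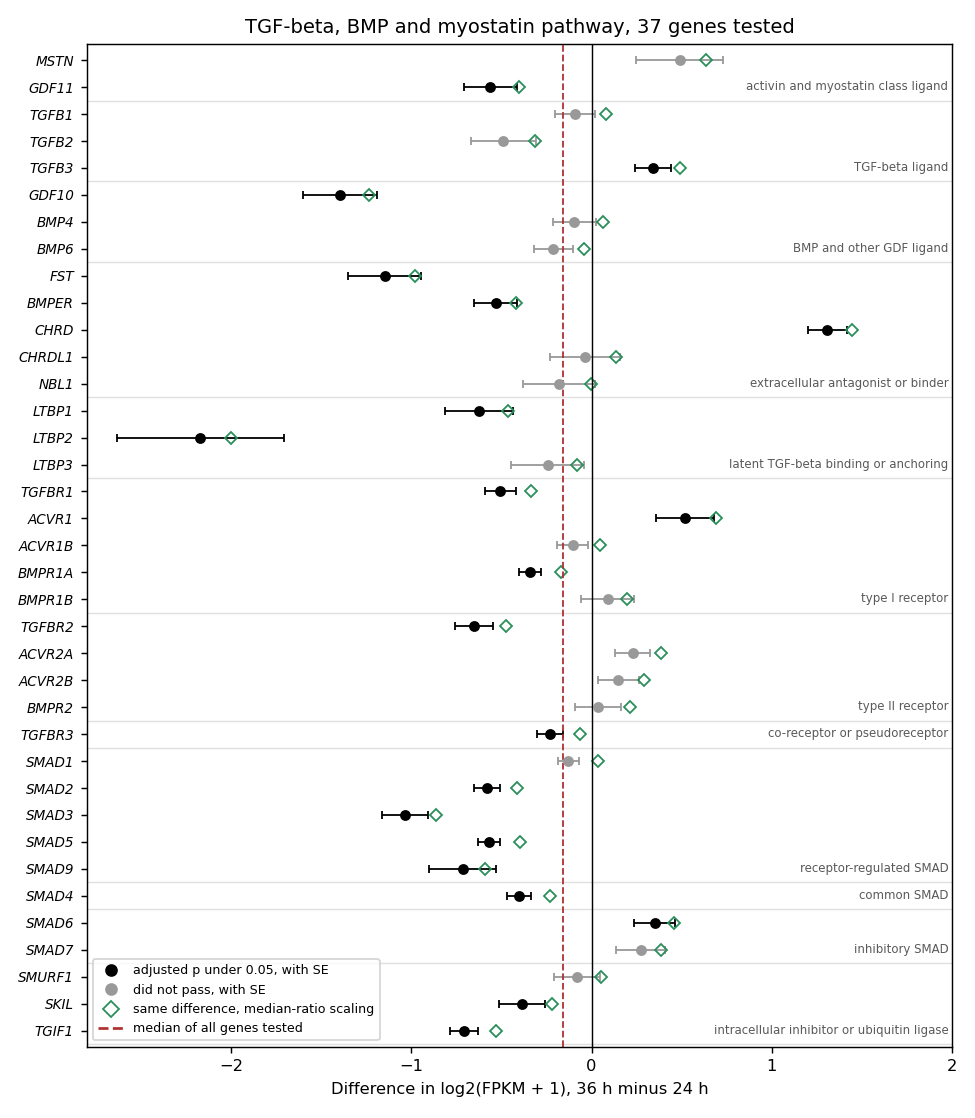
Difference in log2(FPKM + 1) between 36 h and 24 h (x axis) for the 37 members tested, grouped by role, with filled circles and standard errors from the main fit (black where the adjusted p was under 0.05, grey otherwise), open diamonds for median-ratio scaling, and a dashed line at the median of all genes (-0.16). LTBP2 lay farthest to the left at -2.17 and CHRD farthest to the right at 1.31, and 4 of the 5 receptor-regulated SMADs and SMAD4 were black and left of 0.

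Of the activin and myostatin class of ligands, 2 could be measured, and 1 of them fell. MSTN (ENSSSCG00000016047, chromosome 15 from 94623526 to 94628440 of Sscrofa11.1), the gene for myostatin, had an FPKM of 2.48, 3.44 and 5.58 in NC24h replicates 4, 5 and 6 and of 6.73, 4.71 and 5.36 in NC36h, on 118 fragments in all of NC24h and 211 in all of NC36h. The lower values were in NC24h replicates 4 and 5, and replicate 6 lay within the NC36h range, so the groups overlapped. This was a difference of 0.49 on the log2 scale (standard error 0.24, adjusted p = 0.129) that did not pass the threshold, and without NC24h replicate 6 it was 0.74 with an adjusted p of 0.0121. GDF11, the closest relative of myostatin, had an FPKM of 9.60, 10.7 and 14.3 at 24 h and of 7.23, 6.85 and 8.12 at 36 h. All NC36h libraries lay below all NC24h libraries, a difference of -0.56 on the log2 scale (standard error 0.15, adjusted p = 0.0182), and the call was lost without NC36h replicate 4 and without NC36h replicate 5 (adjusted p up to 0.0677). In FPKM, which is per length, GDF11 stood above MSTN in every library. The ratio of GDF11 to MSTN was 3.88, 3.10 and 2.57 in the NC24h libraries and 1.07, 1.46 and 1.51 in the NC36h libraries, without overlap. This ratio and those below were chosen after the values were seen and carry no test, and ratios and shares within a library do not move with the scaling of the library.

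Of the 3 TGF-beta ligands, 1 rose and none fell past the threshold. TGFB1 had an FPKM of 46.1, 43.3 and 35.3 at 24 h and of 39.8, 41.2 and 35.3 at 36 h, with overlapping groups and a difference of -0.09 on the log2 scale (standard error 0.11, adjusted p = 0.521), and the sign turned with median-ratio scaling (0.08). TGFB2 had an FPKM of 51.1, 62.1 and 87.9 at 24 h and of 45.3, 48.0 and 45.5 at 36 h. Its NC36h libraries were all lower and lay close together, while NC24h replicate 6 stood far above its group, and a difference of -0.49 on the log2 scale (standard error 0.18, adjusted p = 0.0602) did not pass the threshold. Without that library the change of TGFB2 was -0.28 with an adjusted p of 0.0409, and with a block for the replicate number its adjusted p was 0.0497. TGFB3, the least abundant of them, rose from 4.23, 5.003 and 5.29 to 6.74, 6.10 and 6.28, with all NC36h libraries above all NC24h libraries and a difference of 0.34 on the log2 scale (standard error 0.10, adjusted p = 0.0265). The call for TGFB3 held with median-ratio scaling (0.49, adjusted p = 0.00521). It also held when NC24h replicate 6 was left out (0.40, adjusted p = 0.0156), and it was lost when any other library was left out (adjusted p up to 0.0853). A block for the replicate number ended the call of TGFB3 as well (adjusted p = 0.0532). As a share of the summed FPKM of the 3 ligands, TGFB3 took 4.27 ± 0.227% at 24 h and 6.98 ± 0.506% at 36 h (SD, n = 3), without overlap. TGFB2 took 58.3 ± 9.19% and 50.6 ± 1.4998%, but its groups overlapped, with shares of 50.4, 56.2 and 68.4% in NC24h and 49.3, 50.4 and 52.3% in NC36h.

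Of the 10 BMP and other GDF ligands listed, 7 could be measured and 3 were abundant enough to test. GDF10 (ENSSSCG00000010376, chromosome 14 from 88522956 to 88534719), a divergent ligand also called BMP3B, had an FPKM of 23.3, 23.5 and 19.3 in the NC24h libraries and of 5.48, 7.86 and 10.5 in the NC36h libraries. It was the ligand that fell most, with no overlap, from 22.0 ± 2.35 to 7.96 ± 2.53 (SD, n = 3), a difference of -1.40 on the log2 scale (standard error 0.21, adjusted p = 0.00253), and the call held in all alternatives fitted (adjusted p between 0.00223 and 0.0148). The NC36h libraries of GDF10 themselves differed, with replicate 6 well above replicate 4. BMP4 had an FPKM of 8.83, 10.7 and 10.04 at 24 h and of 8.40, 8.37 and 10.8 at 36 h, and BMP6 had 19.8, 21.8 and 26.0 and 18.0, 19.5 and 20.1. The groups overlapped in both, and their changes of -0.09 (adjusted p = 0.532) and -0.21 (adjusted p = 0.138) did not pass the threshold. Without NC24h replicate 6 the change of BMP6 was -0.11. GDF5 and BMP5 were listed at 0 in every library. BMP3 was above 0 in the 3 NC24h libraries only, at 0.0130, 0.0669 and 0.0399 from 9 fragments, and BMP7 rested on 1 fragment at 24 h and 4 at 36 h, too few to set a level.

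Secreted antagonists, which bind ligands and keep them from their receptors, moved in opposite directions. FST (ENSSSCG00000016892, chromosome 16 from 32806341 to 32811382), the gene for follistatin, which binds myostatin and activins, had an FPKM of 23.4, 28.1 and 42.7 at 24 h and of 14.1, 12.5 and 13.0 at 36 h. All NC36h libraries lay below all NC24h libraries, and the mean fell from 31.4 ± 10.1 to 13.2 ± 0.820 (SD, n = 3), a difference of -1.15 on the log2 scale (standard error 0.20, adjusted p = 0.00450). NC24h replicate 6 was the highest, and without it the change was -0.91 (adjusted p = 0.00101). The ratio of FST to MSTN in a library was 9.43, 8.18 and 7.65 in NC24h and 2.09, 2.65 and 2.43 in NC36h, with the smallest NC24h ratio above the largest NC36h ratio. NC24h replicate 6 did not stand apart in this ratio.

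CHRD (ENSSSCG00000025270, chromosome 13 from 122266632 to 122277513), the gene for the BMP antagonist chordin, was the member that rose most. It had an FPKM of 2.50, 2.23 and 1.98 at 24 h and of 7.02, 7.71 and 6.31 at 36 h, on 366 fragments in all of NC24h and 1409 in all of NC36h. The NC36h libraries were all higher, with means of 2.23 ± 0.262 and 7.01 ± 0.697 (SD, n = 3), 3.14 times in FPKM, and a difference of 1.31 on the log2 scale (standard error 0.11, adjusted p = 0.000721). The end of CHRD overlaps the gene THPO by 1229 bases in RefSeq. BMPER, which binds BMPs and acts together with chordin, had an FPKM of 2.15, 2.20 and 2.23 at 24 h and of 1.48, 1.17 and 1.01 at 36 h. It fell without overlap, a difference of -0.53 on the log2 scale (standard error 0.12, adjusted p = 0.0108). CHRD and BMPER were at about the same FPKM at 24 h, with ratios of 1.16, 1.01 and 0.885, and at 36 h the ratios were 4.75, 6.57 and 6.25.

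The more abundant BMP antagonists did not pass the threshold. CHRDL1, a chordin-like protein, had an FPKM of 17.8, 18.9 and 30.7 at 24 h and of 20.9, 20.8 and 22.1 at 36 h. Its groups overlapped through NC24h replicate 6, and its change of -0.04 (adjusted p = 0.887) became 0.20 with an adjusted p of 0.0402 without that library. NBL1, a member of the DAN family of BMP antagonists, was the most abundant antagonist, with an FPKM of 59.9, 68.3 and 102 at 24 h and of 59.2, 63.7 and 75.6 at 36 h. Its groups overlapped as well (a difference of -0.18 on the log2 scale (standard error 0.20, adjusted p = 0.473)), and its change was 0.04 without NC24h replicate 6. Of the summed FPKM of the 4 BMP antagonists measured, NBL1 took 73.9 ± 0.988% at 24 h and 69.0 ± 2.66% at 36 h, and CHRD took 2.30 ± 0.803% and 7.39 ± 1.21% (SD, n = 3).

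The latent TGF-beta binding proteins, which hold the inactive TGF-beta complex and anchor it in the matrix, held the member with the largest change. LTBP2 (ENSSSCG00000002368, chromosome 7 from 97744974 to 97852848), a family member that binds fibrillin and is not known to bind TGF-beta, had an FPKM of 26.7, 38.1 and 103 at 24 h and of 7.48, 10.5 and 11.7 at 36 h. The groups did not overlap, but the NC24h libraries differed widely, with replicate 6 far above the others. The fall, a difference of -2.17 on the log2 scale (standard error 0.46, adjusted p = 0.00868), was -1.62 without NC24h replicate 6 (adjusted p = 0.00179) and kept its call in all alternatives fitted. LTBP1, which binds latent TGF-beta, had an FPKM of 8.25, 10.2 and 14.6 at 24 h and of 7.08, 6.73 and 6.05 at 36 h, with no overlap and a difference of -0.62 on the log2 scale (standard error 0.19, adjusted p = 0.0297), which was -0.42 without NC24h replicate 6. The call for LTBP1 was lost with median-ratio scaling (-0.47, adjusted p = 0.0601), with quantile normalization (adjusted p = 0.0670) and with no minimum FPKM (adjusted p = 0.0502). It was also lost when NC24h replicate 5 or any NC36h library was left out (adjusted p up to 0.0868). LTBP3, which also binds latent TGF-beta, had an FPKM of 8.39, 10.7 and 15.4 at 24 h and of 8.37, 9.13 and 10.4 at 36 h, with overlapping groups and a difference of -0.24 on the log2 scale (standard error 0.20, adjusted p = 0.341), which was -0.03 without NC24h replicate 6. Of the summed FPKM of these 3 genes LTBP2 took 67.9 ± 8.36% at 24 h and 38.0 ± 4.70% at 36 h, and LTBP3 took 16.4 ± 4.16% and 36.1 ± 1.21% (SD, n = 3). LRRC32, which anchors latent TGF-beta at the cell surface, lay under the minimum at 0.747, 1.03 and 0.909 and 0.674, 1.003 and 1.18, with overlapping groups.

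**Figure D2:**
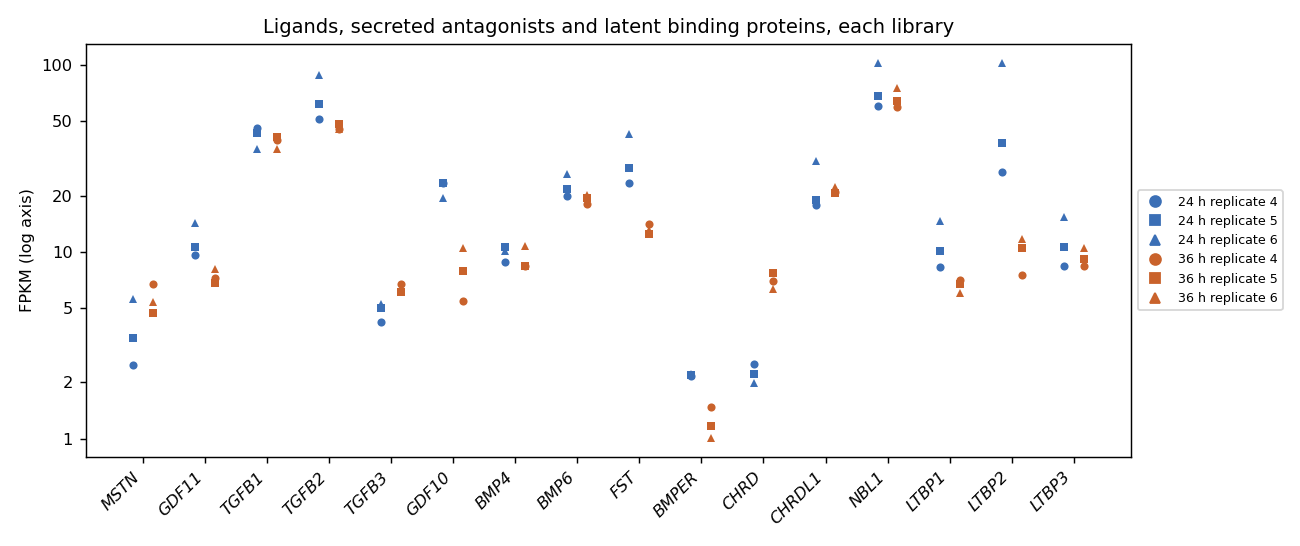
FPKM (log axis) of the 16 ligands, antagonists and latent binding proteins tested, with a point for each library, blue for 24 h and orange for 36 h, and a marker shape for each replicate number. The blue points of FST, GDF10 and LTBP2 lie above all orange points and those of CHRD below, and the blue triangle (NC24h replicate 6) is the highest point for LTBP2 at 103.

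Type I receptors, the kinases that phosphorylate the SMADs, moved in opposite directions. ACVR1 (ENSSSCG00000015874, chromosome 15 from 64749478 to 64891653), a type I receptor for BMPs, had an FPKM of 54.7, 54.4 and 36.4 at 24 h and of 72.0, 69.6 and 64.7 at 36 h. All NC36h libraries were higher, and NC24h replicate 6 was the lowest of all, with a difference of 0.52 on the log2 scale (standard error 0.16, adjusted p = 0.0321). Without that library the change was 0.33 (adjusted p = 0.00665). Leaving out any NC36h library ended the call (adjusted p up to 0.0927), as did the fit with no minimum FPKM (adjusted p = 0.0512). TGFBR1, the type I receptor for TGF-beta, had an FPKM of 38.6, 36.6 and 44.6 at 24 h and of 28.3, 26.7 and 28.2 at 36 h. It fell without overlap, a difference of -0.51 on the log2 scale (standard error 0.08, adjusted p = 0.00378), and kept its call in all alternatives fitted. BMPR1A, another BMP receptor, had an FPKM of 46.0, 44.6 and 42.2 at 24 h and of 34.7, 34.1 and 35.3 at 36 h. It also fell without overlap and with little spread between replicates (a difference of -0.34 on the log2 scale (standard error 0.06, adjusted p = 0.00414)), but with median-ratio scaling, which removes the shift common to all genes, the change was -0.17 and the call was lost (adjusted p = 0.0949).

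The summed FPKM of the 6 type I receptors was 141 ± 7.95 at 24 h and 139 ± 3.21 at 36 h (SD, n = 3), with overlapping groups, while its makeup differed. ACVR1 took 37.2, 38.1 and 27.6% of the sum in the NC24h libraries and 50.7, 50.3 and 47.7% in the NC36h libraries. TGFBR1 took 28.6 ± 4.57% and 20.01 ± 0.778%, and BMPR1A took 31.5 ± 0.470% and 25.0 ± 0.848%. In 2 of 3 NC24h libraries ACVR1 stood above BMPR1A, with ratios of 1.19, 1.22 and 0.862, and in the NC36h libraries the ratios were 2.08, 2.04 and 1.84. ACVR1B, the type I receptor for activin and myostatin, had an FPKM of 5.85, 5.97 and 6.60 and 5.40, 5.999 and 5.52, and BMPR1B, a further BMP receptor, had 1.42, 1.14 and 1.79 and 1.33, 1.86 and 1.60. Neither differed between the groups by the test (adjusted p = 0.329 and 0.638). ACVRL1, a receptor known from endothelium, lay under the minimum at 0.392, 0.234 and 0.170 and 0.168, 0.223 and 0.271. ACVRL1 and ACVR1B are neighbours on chromosome 5, with a gap of 30.2 kb between them.

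Of the 4 type II receptors, only TGFBR2 passed the threshold on the deposited scale. TGFBR2 (ENSSSCG00000011226, chromosome 13 from 16784370 to 16875828), the receptor for TGF-beta, had an FPKM of 76.4, 77.0 and 95.2 at 24 h and of 48.7, 51.5 and 56.5 at 36 h. All NC36h libraries were lower, with a difference of -0.65 on the log2 scale (standard error 0.10, adjusted p = 0.00333), and the call held in all alternatives fitted. BMPR2, the BMP type II receptor and the most abundant member measured, had an FPKM of 91.1, 80.7 and 65.1 at 24 h and of 84.0, 84.1 and 73.3 at 36 h, with overlapping groups and a difference of 0.04 on the log2 scale (standard error 0.13, adjusted p = 0.826), which was -0.09 without NC24h replicate 6. TGFBR2 stood below BMPR2 in 2 NC24h libraries and above it in replicate 6, with ratios of 0.839, 0.954 and 1.46, and the ratios at 36 h were 0.5796, 0.613 and 0.771.

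The activin and myostatin type II receptors were much less abundant. ACVR2A had an FPKM of 6.86, 7.73 and 6.39 at 24 h and of 9.12, 8.01 and 7.93 at 36 h. Its NC36h libraries were all higher, but a difference of 0.23 on the log2 scale (standard error 0.10, adjusted p = 0.0876) did not pass, whereas it did with median-ratio scaling (0.38, adjusted p = 0.0205). ACVR2B had an FPKM of 4.44, 4.32 and 4.01 and of 5.48, 5.04 and 4.05, with NC36h replicate 6 inside the NC24h range and a difference of 0.15 on the log2 scale (standard error 0.12, adjusted p = 0.310). On the deposited scale, the summed FPKM of the 4 receptors was 173 ± 4.94 at 24 h and 146 ± 3.68 at 36 h (SD, n = 3), and TGFBR2 took 47.9 ± 6.90% and 35.9 ± 3.55% of it. The difference in the sum holds the shift common to all genes on this scale (a median log2 change of -0.16). The sum was not taken with median-ratio scaling, whereas the share does not move with it.

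Of the co-receptors and receptor-like inhibitors, TGFBR3 was the one abundant enough to test. TGFBR3 (betaglycan), which presents TGF-beta to its receptor, had an FPKM of 14.7, 13.4 and 13.8 at 24 h and of 12.6, 11.5 and 11.2 at 36 h. It fell by a small amount without overlap (a difference of -0.23 on the log2 scale (standard error 0.07, adjusted p = 0.0368)), and with median-ratio scaling the change was -0.07 (adjusted p = 0.506). The call of TGFBR3 was also lost with quantile normalization (-0.08, adjusted p = 0.434). Leaving out NC24h replicate 4 or 5 or NC36h replicate 5 or 6 ended it too (adjusted p up to 0.121). ENG (endoglin) and BAMBI, a receptor-like inhibitor without a kinase, lay under the minimum. ENG had an FPKM of 0.429, 0.443 and 0.641 and of 1.24, 1.17 and 1.08, on 76 fragments in all of NC24h and 215 in all of NC36h, and all NC36h libraries were higher. In the fit with no minimum, the log2 change of ENG was 0.53 (adjusted p = 0.00691), while BAMBI stood at 0.278, 0.491 and 0.469 and 0.452, 0.383 and 0.466, with overlapping groups.

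**Figure D3:**
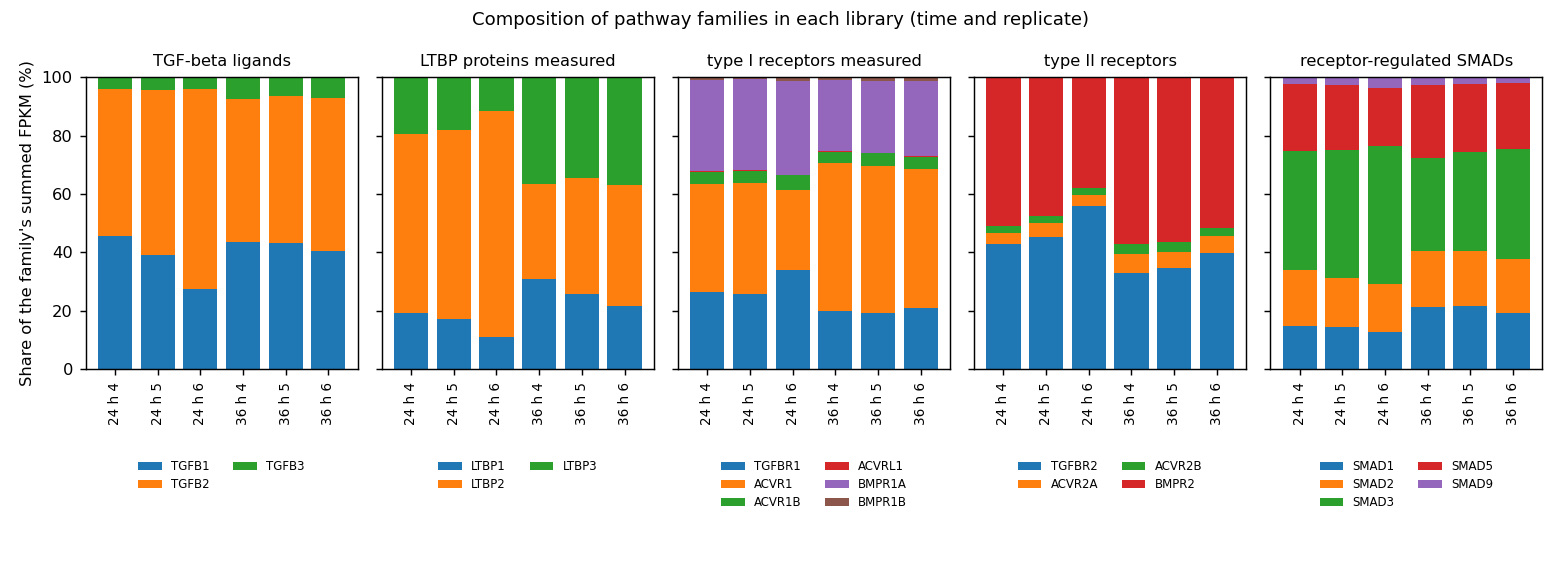
Share of the summed FPKM (%) that each gene took within 5 families of members, a stacked bar for each library (time and replicate number). ACVR1 (orange) widens in the type I receptors from 34.3 ± 5.80% to 49.6 ± 1.61% (mean ± SD, n = 3), BMPR2 (red) widens in the type II receptors, and LTBP2 (orange) narrows in the LTBP proteins.

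The receptor-regulated SMADs, which carry the signal to the nucleus, were lower at 36 h in all 3 NC36h libraries than in all 3 NC24h libraries for each of the 5 genes, and 4 of the 5 passed the threshold. Of all genes tested, 63.6% did not overlap, in either direction, and 34.4% were called lower. With median-ratio scaling 4 of the 5 were again called lower, against 22.2% of all genes. SMAD3 (ENSSSCG00000004952, chromosome 1 from 164998457 to 165124455), which carries TGF-beta, activin and myostatin signals, had an FPKM of 46.4, 50.6 and 62.4 at 24 h and of 23.1, 24.3 and 28.6 at 36 h. The mean fell from 53.1 ± 8.29 to 25.3 ± 2.87 (SD, n = 3), a difference of -1.03 on the log2 scale (standard error 0.13, adjusted p = 0.00162). That difference was -0.91 without NC24h replicate 6. SMAD2, its partner in the same branch, had an FPKM of 22.0, 19.4 and 22.0 and of 13.8, 13.5 and 14.0, with a difference of -0.58 on the log2 scale (standard error 0.07, adjusted p = 0.00168). The ratio of SMAD3 to SMAD2 was 2.10, 2.61 and 2.84 in NC24h and 1.67, 1.80 and 2.03 in NC36h, and NC24h replicate 4 and NC36h replicate 6 lay close to each other.

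In the BMP branch, SMAD5 had an FPKM of 26.3, 25.8 and 26.4 at 24 h and of 18.1, 16.8 and 17.1 at 36 h. The replicates lay close together and the groups far apart, a difference of -0.57 on the log2 scale (standard error 0.06, adjusted p = 0.00110). SMAD1 had an FPKM of 16.8, 16.6 and 16.6 and of 15.5, 15.4 and 14.7, and its difference of -0.13 did not pass (adjusted p = 0.111) and turned its sign with median-ratio scaling (0.04). SMAD9 was the least abundant, at 2.66, 3.08 and 4.84 and 1.95, 1.59 and 1.58, and fell by 0.72 on the log2 scale (standard error 0.19, adjusted p = 0.0181). Its log2 change was -0.52 without NC24h replicate 6, and the call was lost without NC36h replicate 5 or 6 (adjusted p up to 0.0634). SMAD4 (chromosome 1 from 100521843 to 100633501), the partner of both branches, had an FPKM of 31.0, 29.7 and 30.3 and of 24.3, 21.5 and 22.4. It fell without overlap, a difference of -0.40 on the log2 scale (standard error 0.07, adjusted p = 0.00369), and the calls of SMAD2, SMAD3, SMAD4 and SMAD5 held in all alternatives fitted. On the deposited scale, the 5 receptor-regulated SMADs summed to 121 ± 10.1 FPKM at 24 h and 73.3 ± 2.36 FPKM at 36 h (SD, n = 3). SMAD1 took 13.9 ± 1.16% and 20.7 ± 1.22% of the sum while SMAD3 took 43.9 ± 3.28% and 34.5 ± 2.87%.

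Inhibitory SMADs, which block the receptors and are themselves induced by the pathway, lay at low levels, and 1 of the 2 tested rose. SMAD6, known for blocking BMP signals, had an FPKM of 1.32, 1.54 and 1.14 at 24 h and of 1.90, 1.99 and 2.005 at 36 h, on 134 fragments in all of NC24h and 241 in all of NC36h. It rose without overlap (a difference of 0.35 on the log2 scale (standard error 0.11, adjusted p = 0.0398)), and with median-ratio scaling the change was 0.46 (adjusted p = 0.0178). But leaving out any of the 6 libraries ended the call (adjusted p up to 0.118), as did a block for the replicate number (adjusted p = 0.0768). SMAD7, which blocks both branches, had an FPKM of 1.77, 1.47 and 1.68 and of 1.79, 2.17 and 2.66. All NC36h libraries were higher, replicate 4 by little, and a difference of 0.27 on the log2 scale (standard error 0.13, adjusted p = 0.133) did not pass. SMAD6 and SMAD3 lie 263 kb apart on chromosome 1.

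**Figure D4:**
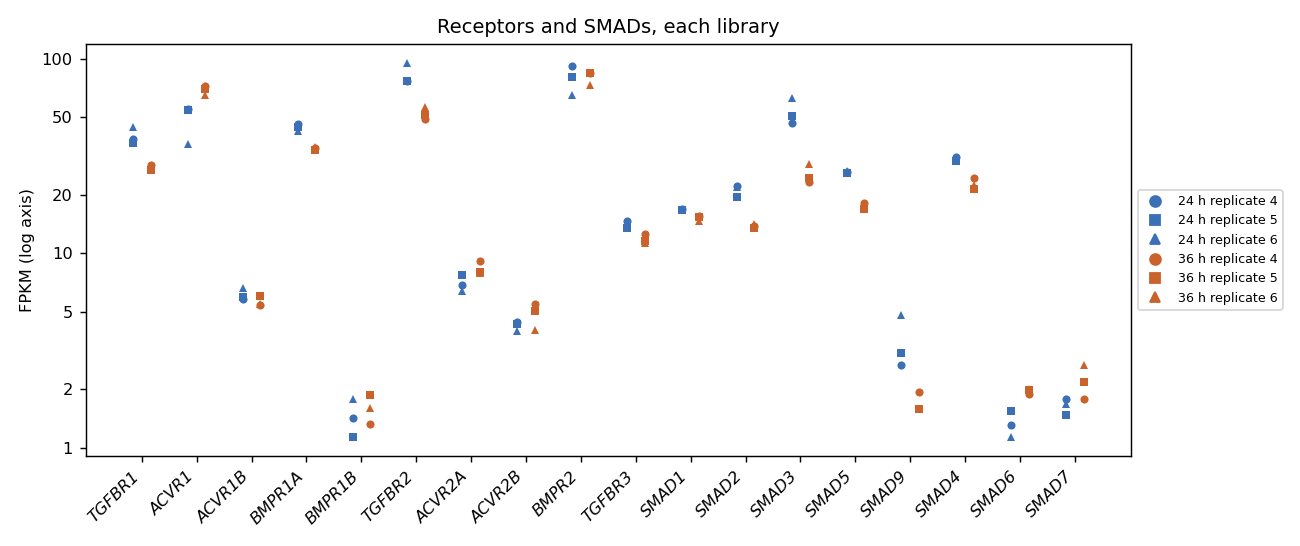
FPKM (log axis) of the 18 receptors, co-receptors and SMADs tested, with a point for each library, blue for 24 h and orange for 36 h, and a marker shape for each replicate number. For SMAD2, SMAD3, SMAD5 and SMAD4 the orange points lie below the blue ones, for ACVR1, SMAD6 and SMAD7 above, and for BMPR2 they mix.

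Of the intracellular inhibitors, 3 could be tested. TGIF1, a corepressor that binds SMAD2 and SMAD3 and one of the most abundant members, had an FPKM of 85.0, 91.2 and 91.5 at 24 h and of 51.7, 51.8 and 59.9 at 36 h. It fell without overlap, a difference of -0.70 on the log2 scale (standard error 0.08, adjusted p = 0.00120), and its call held in all alternatives fitted. SKIL, the gene for the SMAD corepressor SnoN, had an FPKM of 17.1, 14.5 and 12.6 and of 11.15, 12.1 and 9.79. All NC36h libraries were lower (a difference of -0.38 on the log2 scale (standard error 0.13, adjusted p = 0.0411)). But the call of SKIL was lost with median-ratio scaling (-0.22, adjusted p = 0.236), with quantile normalization (-0.23, adjusted p = 0.221) and with no minimum FPKM (adjusted p = 0.0627). It was also lost when any library but NC24h replicate 6 was left out (adjusted p up to 0.117). SMURF1, a ubiquitin ligase for receptors and SMADs, had an FPKM of 2.86, 2.78 and 2.75 and of 2.18, 2.46 and 3.21, with overlapping groups and a difference of -0.08 on the log2 scale (standard error 0.13, adjusted p = 0.624).

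Genes known to be induced by TGF-beta or BMP were read as a further list of 35 genes, of which 23 were tested. Past the threshold, 8 were higher and 8 lower at 36 h, with a median log2 change of 0.03 beside -0.16 for all genes, of which 16.5% were called higher and 34.4% lower. These 2 shares are the background for the counts of each list that follows. Among genes known as TGF-beta or activin targets, 7 of 18 rose and 6 fell. FN1, the gene for fibronectin, had an FPKM of 286, 392 and 829.5 at 24 h and of 63.8, 69.9 and 75.8 at 36 h, a log2 change of -2.68 (adjusted p = 0.00192) that was -2.25 without NC24h replicate 6. LOX, which crosslinks collagen, had 136, 166 and 266 and 53.3, 59.98 and 68.1 (-1.58, adjusted p = 0.00273). Both fell without overlap, and NC24h replicate 6 was the highest in each. In the other direction, TGFBI, a matrix protein named for its induction by TGF-beta, had an FPKM of 1.75, 1.58 and 1.19 and of 12.1, 7.76 and 6.36, a rise of 1.92 (adjusted p = 0.00130) with no overlap.

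JUNB, an immediate early transcription factor, had an FPKM of 8.14, 8.21 and 6.36 at 24 h and of 15.1, 16.7 and 84.7 at 36 h (1.77, adjusted p = 0.0477). The groups did not overlap, but NC36h replicate 6 stood far above the other NC36h libraries, and the change without it was 0.99 (adjusted p = 0.00558). The call of JUNB was lost with eBayes without trend, with no minimum FPKM and with a block for the replicate number. It was also lost without any one NC24h library or NC36h replicate 5 (adjusted p up to 0.0973). CCN1 and CCN2, secreted matrix proteins that were picked after their values were seen, were also highest in NC36h replicate 6. CCN1 had an FPKM of 82.0, 83.4 and 99.3 and of 48.8, 64.8 and 381, and CCN2 had 199, 178 and 168 and 93.7, 142 and 474. With all libraries the groups overlapped and neither passed (adjusted p = 0.765 and 0.968), while without NC36h replicate 6 both were lower at 36 h, with log2 changes of -0.64 (adjusted p = 0.0214) and -0.65 (adjusted p = 0.0377). The reason why this library stood apart in these genes was not tested.

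Of the 10 BMP targets listed, 5 were tested, 1 rose and 2 fell. ID1 and ID3, inhibitors of myogenic bHLH factors and the best known BMP targets, were not analysed here. ID2 had an FPKM of 15.2, 15.8 and 20.6 at 24 h and of 6.39, 8.95 and 16.1 at 36 h, with NC36h replicate 6 inside the NC24h range and a difference of -0.74 on the log2 scale (standard error 0.30, adjusted p = 0.0746). Without that library the change of ID2 was -1.07 (adjusted p = 0.00960). ID4 had an FPKM of 1.40, 1.43 and 1.18 and of 2.35, 2.28 and 3.43, a rise without overlap (a difference of 0.65 on the log2 scale (standard error 0.15, adjusted p = 0.0116)). HEY1, a repressor that also responds to Notch, had an FPKM of 27.5, 29.0 and 27.7 and of 14.7, 14.0 and 15.8, and fell without overlap (a difference of -0.88 on the log2 scale (standard error 0.07, adjusted p = 0.000692)). ATOH8, a bHLH factor, had 4.44, 4.80 and 7.55 and 2.58, 2.90 and 3.53, a log2 change of -0.70 (adjusted p = 0.0213), with the call lost without NC36h replicate 4 or 5 (adjusted p up to 0.0708).

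**Figure D5:**
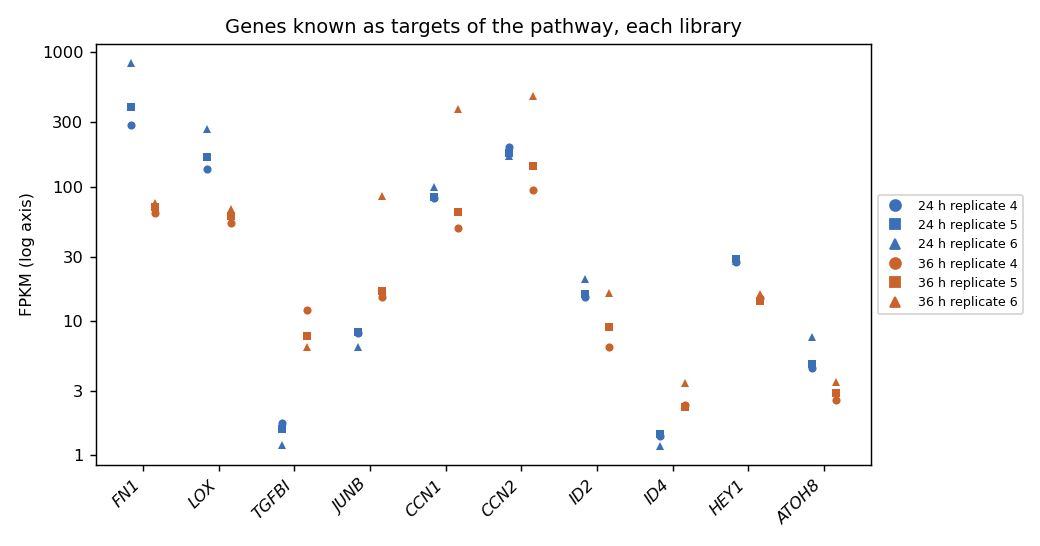
FPKM (log axis) of 10 genes known as targets of the pathway, with a point for each library, blue for 24 h and orange for 36 h, and a marker shape for each replicate number. The orange triangle (NC36h replicate 6) stands apart in JUNB, CCN1 and CCN2, at 84.7, 381 and 474, and the blue triangle (NC24h replicate 6) stands apart in FN1.

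A wider list of 84 genes held other ligands, regulators, processing enzymes, co-receptors and SMAD modulators of the family, of which 49 were tested, 10 higher and 24 lower at 36 h, against 16.5% and 34.4% of all genes. With median-ratio scaling 11 were higher and 17 lower, against 23.9% and 22.2%. INHA, the inhibin alpha chain that opposes activins, had an FPKM of 8.39, 7.41 and 4.31 at 24 h and of 18.0, 20.3 and 21.1 at 36 h. It rose without overlap (a difference of 1.47 on the log2 scale (standard error 0.21, adjusted p = 0.00231)). CHRDL2, another chordin-like BMP antagonist, was detected by 1 fragment in the 3 NC24h libraries and stood at 2.27, 2.41 and 2.07 in the NC36h libraries. It reached the minimum mean FPKM through the NC36h libraries alone. Its test (adjusted p = 0.000663) is therefore not read as support, although CHRDL2 stays in the counts. GDF9, a ligand known from the oocyte, rose from 4.91 ± 0.207 to 6.17 ± 0.543 (SD, n = 3), a log2 change of 0.27 (adjusted p = 0.0393), and the call was lost with no minimum FPKM and when any of the 6 libraries was left out (adjusted p up to 0.121).

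Among 8 tested regulators outside the cell, 2 were higher and 4 lower, beside the same shares of all genes. CD109, a surface protein that binds TGF-beta and dampens its signal, had an FPKM of 28.9, 31.9 and 49.0 at 24 h and of 10.5, 11.2 and 10.9 at 36 h, and fell (a difference of -1.62 on the log2 scale (standard error 0.18, adjusted p = 0.00129)). FMOD (fibromodulin), a matrix proteoglycan that binds TGF-beta, had 132, 148 and 233 and 47.8, 57.1 and 67.0, and fell by 1.53 on the log2 scale (adjusted p = 0.00250). The groups did not overlap in either gene. BGN (biglycan), a proteoglycan of the same family, rose from 179.7 ± 16.9 to 228 ± 10.8 (SD, n = 3), a log2 change of 0.34 (adjusted p = 0.0152), with the call lost without NC36h replicate 5 (adjusted p = 0.0634).

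The proprotein convertases, which cut the ligand precursors, moved apart. PCSK5 had an FPKM of 2.11, 2.07 and 3.28 at 24 h and of 6.32, 6.76 and 6.62 at 36 h, and PCSK6 had 9.19, 10.002 and 13.2 and 2.69, 2.56 and 2.95. Both moved without overlap, with log2 changes of 1.13 (adjusted p = 0.00172) and -1.65 (adjusted p = 0.000721). FURIN, the best known convertase of the family, had 42.4, 42.4 and 41.5 and 49.3, 50.8 and 49.7, a small rise with little spread between replicates (a difference of 0.24 on the log2 scale (standard error 0.05, adjusted p = 0.00904)). ITGAV, the integrin chain that releases TGF-beta from its latent complex, had 65.0, 72.4 and 105 and 31.2, 29.0 and 31.3, and fell by 1.35 on the log2 scale (adjusted p = 0.00165). EMILIN1, a matrix protein that holds back the processing of TGF-beta, rose by 0.71 on the log2 scale (adjusted p = 0.00131).

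RGMB, a BMP co-receptor, had an FPKM of 72.9, 68.2 and 56.2 at 24 h and of 91.8, 99.9 and 112 at 36 h, and rose without overlap (a difference of 0.62 on the log2 scale (standard error 0.12, adjusted p = 0.00579)). NEO1, the receptor of the RGM proteins, fell by 0.36 on the log2 scale (adjusted p = 0.0364), and its call was lost with median-ratio scaling (-0.20, adjusted p = 0.159), with quantile normalization, with no minimum FPKM, and without replicate 5 or 6 of either group (adjusted p up to 0.0941 without one library). Of 25 tested modulators inside the cell, 1 was higher and 14 lower, against 16.5% and 34.4% of all genes, and with median-ratio scaling 2 were higher and 8 lower, against 23.9% and 22.2%. The ubiquitin ligase gene RNF111 had the largest fall among them, -0.62 (adjusted p = 0.00198), followed by ZFYVE9, which brings SMAD2 and SMAD3 to the receptor (-0.58, adjusted p = 0.00541). USP11, a deubiquitinase of the TGF-beta receptor, was the one that rose (0.26, adjusted p = 0.0111).

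In RefSeq for Sscrofa11.1, 16 of the 37 members tested overlap another gene, and for 11 of them (MSTN, TGFB1, TGFB3, GDF10, BMPER, CHRD, LTBP2, LTBP3, BMPR1A, SMAD3 and SMAD4) it is a protein-coding one. The strandedness of the libraries was not given in the sources used here, so fragments of the shared stretches cannot be told apart.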

How the data were processed

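RNA-seq of 6 PSC libraries was analysed, 3 at 24 h and 3 at 36 h of differentiation. According to the study's methods, paired-end reads were mapped with HISAT2 to Sscrofa11.1, assembled with StringTie and counted with HTSeq, whereas the submitters' processing notes name TopHat2, Cufflinks and HTSeq. The authors deposited FPKM values, in which the fragments of a gene are scaled to its length and to the library total, in 1 column per library and none pooled. Symbols were paired with 11804 of 25322 Ensembl identifiers, and coordinates are those of RefSeq. Genes averaging an FPKM of 1 or more over the 6 libraries (14060) were tested on log2(FPKM + 1) with limma 3.58.1 in R 4.3.3 (lmFit, then eBayes with trend, two-sided), with Benjamini-Hochberg adjustment over all of them and a threshold of 0.05. A log2 change on this scale understates the change of genes with low FPKM.

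Whole fragments were recovered from the steps between the FPKM values of each gene, which succeeded for all of 19543 genes that were above 0 in 3 or more libraries. They were used for depth only, and no count model on them is reported. The test was tried on simulated data of 14060 genes, with a shift of 1 (log2) given to 200. Of these 200 genes 92.5% passed, and genes without a shift made up 3.65% of all that passed. The simulated noise was independent between genes, and far fewer genes were shifted than were called in the data. Most called members changed by less than 1. These rates therefore hold for the simulated setting only and do not give the power or the share of false calls in these data. The alternatives were pseudocounts of 0.1 and 0.01, a minimum FPKM of 5 or none, quantile normalization or median-ratio scaling, eBayes with no trend, a block for the replicate number, and each library left out. Members and gene lists were chosen with earlier results of these data known. All members are named. Of each role in the other lists, the text names at most 2 rises and 2 falls, the largest of those called without overlap, plus ID1 to ID4 and FURIN, and of the marker lists the most abundant and the defining genes. One gene of the rule is not reported here, and CCN1 and CCN2 are named outside it, chosen after their values were seen. No sequences are printed.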

Additional observations from a re-analysis of the deposited data

How the results depend on the processing

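Across 14 alternatives, the 21 called members kept their sign, and 12 of them kept the call. Of the 16 members not called, 11 were called in none. The number of members called was 21 and stayed within 1.5 times of it except without NC36h replicate 5 (range without one library 13 to 23, beside 4889 to 7336 of all 14060 genes tested). The number higher, 4, was 2 with a minimum FPKM of 5, where fewer genes are tested, 7 with quantile normalization and 2 with the replicate block, and between 1 and 5 without one library. The number lower, 17, was between 12 and 18 without one library.

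The correlation of same-numbered libraries' deviations was 0.15, -0.02 and 0.18 for numbers 4, 5 and 6. Between libraries of different numbers it ran from -0.20 to 0.10, so the values for numbers 4 and 6 were the highest. All of them were low, and the numbers were not read as pairs, but a pairing is not excluded. With the replicate block 20 members were called, 2 higher and 18 lower, and 7034 genes in all against 7156. Its adjusted p was 0.0532 for TGFB3 and 0.0768 for SMAD6, which lost their call, and 0.0497 for TGFB2, which gained one.

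Signs turned in members that were not called, and in no called member. With median-ratio scaling and quantile normalization the log2 changes were 0.0659 and 0.0698 for BMP4, 0.134 and 0.0546 for CHRDL1, 0.0472 and 0.0823 for ACVR1B, and 0.05 and 0.0782 for SMURF1. With median-ratio scaling alone they were 0.0815 for TGFB1 and 0.0383 for SMAD1. Without one library the changes ranged from -0.177 to 0.201 for CHRDL1, from -0.337 to 0.0407 for NBL1, from -0.00510 to 0.187 for BMPR1B, from -0.0935 to 0.146 for BMPR2 and from -0.194 to 0.00840 for SMURF1. The cause was not tested. Depth limits the genes with few fragments, such as BMPR1B (282 over the 6 libraries), MSTN (329), BMP3 and BMP7. Among the called members, SMAD6 (375) and BMPER (515) also rested on few. A further alternative, limma voom with scaling by the trimmed mean of M values on recovered fragments, is not reported, since the deposited values are FPKM and not counts.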
